A study of Mus musculus with 8 samples.

Results

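The 10 genes described here are 9 members of the poly(ADP-ribose) polymerase (PARP) family, Parp1, Parp2, Parp3, Parp4, Parp8, Parp9, Parp10, Parp12 and Parp14, and Dtx3l, a ubiquitin ligase gene of the deltex family. They were taken by name from a table of 11996 genes, and all 10 were listed once. RNA was sequenced from C57BL/6 mouse peritoneal macrophages that had been drawn out with thioglycolate, an irritant, and had adhered to plastic for 24 h. The 4 groups were Ptpn1-/- macrophages with IL-10 at 100 ng/ml for 4 h, Ptpn1-/- macrophages under mock treatment, wild-type macrophages with the same dose and time of IL-10, and wild-type macrophages under mock treatment. The labels give 2 samples per group, and name neither the deleted part of Ptpn1 nor any pooling of mice.

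PARP enzymes take ADP-ribose from NAD and attach it to proteins or nucleic acids. Parp1, Parp2 and Parp3 act at breaks in DNA, and Parp1 and Parp2 build chains of ADP-ribose there. Many other members add single units. Several PARP genes, together with Dtx3l, the partner of Parp9, are known as genes that interferon switches on in macrophages. Ptpn1 encodes PTP1B, a phosphatase that acts on JAK kinases and cytokine receptors, and IL-10 signals in macrophages mainly through STAT3.

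The table holds 1 value per gene and group, the authors' mean of a normalized signal. Every column has the same total, 26705598 units, and no value per sample was analysed here. No spread between samples, SD or p-value can therefore be given, and every difference below is a description of 4 columns. Depth per sample is unknown. Differences are log2 ratios with a pseudocount of 26.7 units, 1 ppm of the column's sum, added to both values. Of the 11996 genes, 11400 had a mean of at least 1 ppm, and all 10 members were among them. Differences of at least 2-fold were counted, and those of at least 1.5-fold, a log2 ratio of 0.585, beside them. In bulk RNA of this kind, fewer cells of a type and less RNA per cell cannot be told apart. The signal of Ptpn1 was 5391.5 units with IL-10 and 3836.5 under mock in knockout cells, against 6736 and 4960.5 units in wild-type cells, so the columns labelled knockout were lower but not at 0. Its log2 ratio, knockout over wild type, was -0.37 under mock and -0.32 with IL-10. The 5th percentile of all genes was -0.38 and -0.34, so Ptpn1 lay within the range of most genes. Of 8 macrophage marker genes, all 8 were kept, and their median log2 ratios lay between -0.08 and 0.01 in the 5 comparisons. Single macrophage markers went both ways between the genotypes under mock, from -1.41 for the lysozyme gene Lyz2 to 0.79 for the Fc receptor gene Fcgr1. No NK cell marker was listed.

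Parp9, Dtx3l and Parp14 lie together on mm9 chromosome 16. Positions of genes here and below are on mm9, whereas those of promoters are on GRCm38, so the 2 cannot be compared directly. Parp9 (ENSMUSG00000022906, chr16:35938556-35972689, plus strand) and Dtx3l (ENSMUSG00000049502, chr16:35931947-35939237, minus strand) start head to head, and their rows overlap by 682 bases. Whether strand was used in counting is not given in the sources used here, so reads from that overlap cannot be told apart between them. Parp14 (ENSMUSG00000034422, chr16:35857351-35871468, minus strand) starts 67.1 kb away. No other member's row overlapped that of another listed gene.

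The RefSeq promoter table for GRCm38.p6 matched 7 of the 10 members, all but Parp9, Parp10 and Parp14. Stretches of the 250 bases before the start that lie in no annotated exon are shown for Dtx3l and Parp12, members with higher signal after IL-10 in the knockout, and for Parp4, which was not higher but holds interferon-type motifs. They were chosen after the values were seen, since the rule set for showing promoters, a 2-fold difference, took none. All 3 read 5′ to 3′ on the strand of the gene, and capitals mark matches to GAAANNGAAA, the core of the interferon-stimulated response element.
Dtx3l, chr16:35939207-35939277, minus strand: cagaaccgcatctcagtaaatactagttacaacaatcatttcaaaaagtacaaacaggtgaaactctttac
Parp12, chr6:39118350-39118472, minus strand: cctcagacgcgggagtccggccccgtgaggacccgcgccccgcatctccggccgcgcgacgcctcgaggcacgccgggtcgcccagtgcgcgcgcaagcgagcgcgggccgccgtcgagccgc
Parp4, chr14:56575426-56575618, plus strand: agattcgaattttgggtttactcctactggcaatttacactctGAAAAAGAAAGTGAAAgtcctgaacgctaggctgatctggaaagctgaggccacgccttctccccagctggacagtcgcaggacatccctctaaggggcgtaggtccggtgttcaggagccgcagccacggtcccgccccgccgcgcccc

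The full 250 bases before each start were searched on both strands for GAAANNGAAA and for TTCNNNGAA, the core to which STAT dimers bind. Of the 7 matched members, 1 held GAAANNGAAA: Parp4, with 2 matches that overlap each other and span bases 150 to 135 before the start. None of the 7 held TTCNNNGAA. Over all 32851 promoters of the table, 2.98% held the first motif and 7.02% the second. A match is a description of letters, and the absence of one says nothing beyond this window.

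Parp9 and Dtx3l, whose proteins form a complex, had the highest IL-10 ratios of the set in knockout cells. Parp9, which carries macrodomains that bind ADP-ribose, was listed at 1607.5 units in knockout cells with IL-10 and 857 under mock, and at 963 units in wild-type cells with IL-10 and 734.5 under mock. Its IL-10 ratio was thus 1.88-fold in the knockout (log2 0.89) and 1.31-fold in wild type (log2 0.38). Dtx3l was listed at 1351 units in knockout cells with IL-10 and 783.5 under mock, and at 894.5 units in wild-type cells with IL-10 and 776.5 under mock. For both genes the knockout column with IL-10 stood above the other columns, which lay closer to each other. The log2 IL-10 ratio of Dtx3l was 0.77 in the knockout and 0.20 in wild type.

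Parp14, a large macrodomain enzyme known as a cofactor of STAT6, was listed at 3184 units in knockout cells with IL-10 and 2140 under mock, and at 2331.5 units in wild-type cells with IL-10 and 2102 under mock. Parp12 (ENSMUSG00000038507, chr6:39036409-39068348), a zinc finger member with antiviral activity, was listed at 1921 units in knockout cells with IL-10 and 1323 under mock, and at 1399 units in wild-type cells with IL-10 and 1186 under mock. Parp10 (ENSMUSG00000063268, chr15:76061604-76064153), which adds single ADP-ribose units, was listed at 738.5 units in knockout cells with IL-10 and 547 under mock, and at 614 units in wild-type cells with IL-10 and 579 under mock. All 3 were again highest in the knockout column with IL-10. Their log2 IL-10 ratios in the knockout were 0.57 for Parp14, 0.53 for Parp12 and 0.42 for Parp10, against 0.15, 0.23 and 0.08 in wild type.

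**Figure D1:**
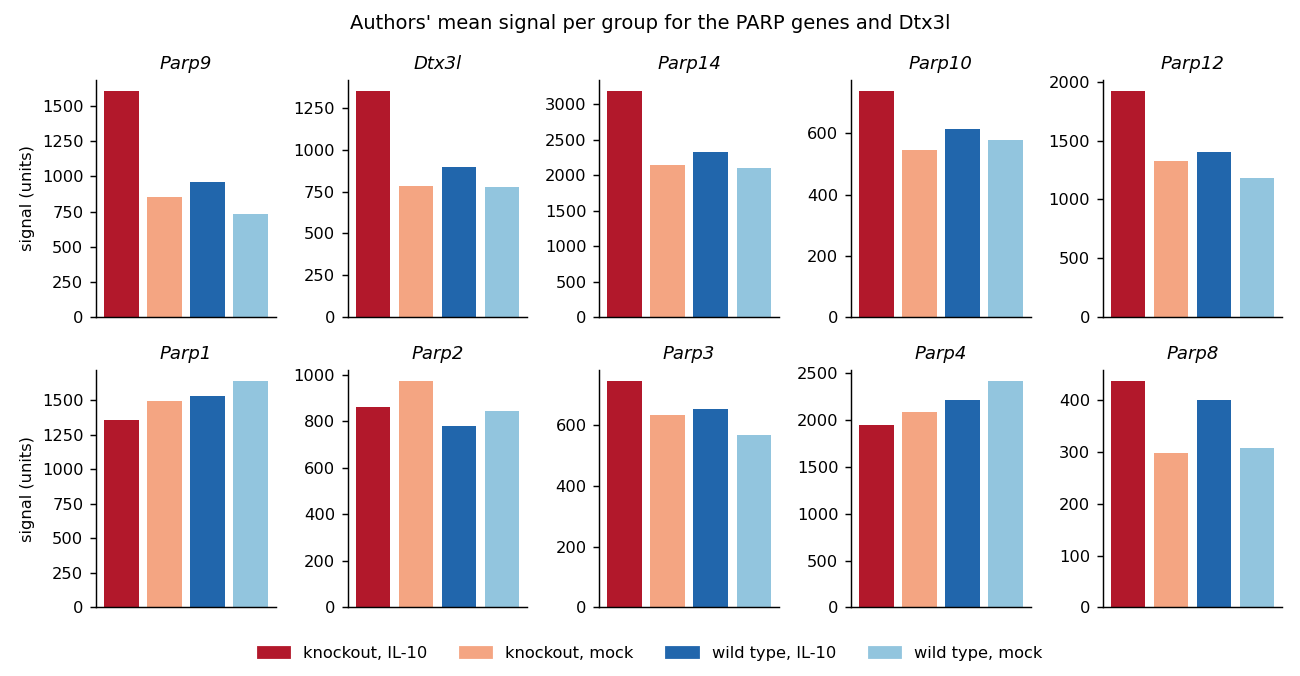
Bars give the authors' mean signal in units for each of the 10 genes, in knockout cells with IL-10, knockout mock, wild type with IL-10 and wild-type mock, 1 value per group with no error bar; each panel has its own axis from 0. The knockout column with IL-10 is the highest for Parp9 (1607.5 units), Dtx3l (1351), Parp14 (3184), Parp10 (738.5) and Parp12 (1921), as well as for Parp3 and Parp8.

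The genes of DNA break repair differed less between columns. Parp1 (ENSMUSG00000026496, chr1:182499086-182531384), the main polymerase at DNA breaks, was listed at 1360 units in knockout cells with IL-10 and 1493.5 under mock, and at 1530 units in wild-type cells with IL-10 and 1636 under mock. Parp2 (ENSMUSG00000036023, chr14:51427621-51440975), its close relative, was listed at 862 units in knockout cells with IL-10 and 970.5 under mock, and at 777.5 units in wild-type cells with IL-10 and 844.5 under mock. Both were slightly lower after IL-10 in each genotype: the log2 ratio was -0.13 for Parp1 and -0.17 for Parp2 in the knockout, and -0.10 and -0.12 in wild type. Parp3 (ENSMUSG00000023249, chr9:106372959-106378707), which adds single units at breaks, ran the other way: it was listed at 741.5 units in knockout cells with IL-10 and 632.5 under mock, and at 650.5 units in wild-type cells with IL-10 and 567 under mock. Its log2 IL-10 ratio was 0.22 in the knockout and 0.19 in wild type.

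Parp4 (ENSMUSG00000054509, chr14:57194456-57278631), a component of the vault particle, was listed at 1943 units in knockout cells with IL-10 and 2086.5 under mock, and at 2213 units in wild-type cells with IL-10 and 2408 under mock. Parp4, the 1 of the 7 searched members with GAAANNGAAA in its promoter window, had an IL-10 log2 ratio below 0 in each genotype, -0.10 for the knockout and -0.12 for wild type. Parp8 (ENSMUSG00000021725, chr13:117643631-117814323) was listed at 436 units in knockout cells with IL-10 and 298.5 under mock, and at 401 units in wild-type cells with IL-10 and 308 under mock. Its log2 ratios of 0.51 for the knockout and 0.35 for wild type lay closer to each other than those of Parp9 or Dtx3l.

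In knockout cells no member reached 2-fold with IL-10 in either direction, where 0.877% of all 11400 genes passed that limit upward and 0.0175% downward. At 1.5-fold, 2 of 10 members were higher, Parp9 and Dtx3l, against 2.32% of all genes, and none was lower, against 0.807%. Parp14, at 0.57, lay just under that limit, and passed it at 0.59 or 0.62 once the median of the 500 genes nearest in signal or in transcript length was subtracted. The ratio of Parp9 was higher than that of 98.9% of all genes, and Parp10, the lowest of the 5 interferon-inducible members, still stood above 95.8%. Parp8, which is not among those 5, stood above Parp10, at 0.51 and above 97.1% of all genes. The median of those 5 was 0.57, beside -0.01 over all genes. The median of all 10 members was 0.46.

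In wild-type cells no member reached 1.5-fold in either direction, beside 1.54% of all genes past that limit upward and 0.412% downward, or 2-fold, beside 0.465% and 0.0175%. The 5 interferon-inducible members lay between 0.08 and 0.38, with a median of 0.20 beside 0.00 over all genes. Parp9 and Parp8 were the highest of the set, above 96.6% and 96.2% of all genes. In each genotype the same 7 members had an IL-10 ratio above 0, and the same 3, Parp1, Parp2 and Parp4, were below. Of all genes, 45.2% were above 0 in the knockout and 49.6% in wild type. The share of all genes with the same sign in both genotypes was not counted.

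**Figure D2:**
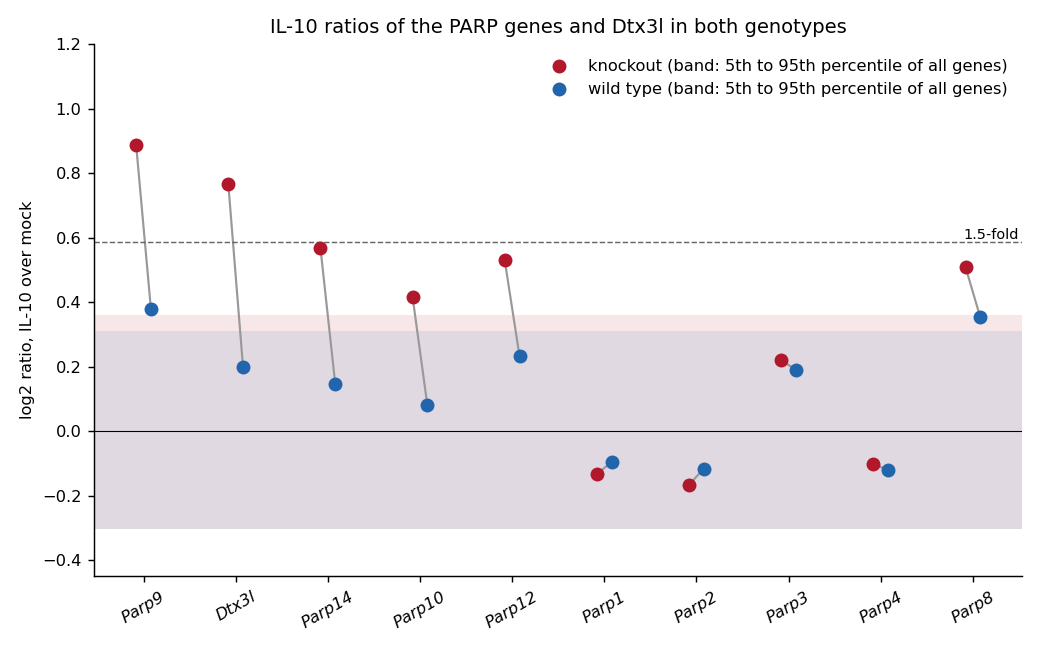
Points give the log2 ratio of IL-10 over mock for each gene in knockout cells (red) and wild-type cells (blue), the shaded bands span the 5th to the 95th percentile of all 11400 genes in each genotype, and the dashed line is 1.5-fold. Parp9 (0.89) and Dtx3l (0.77) lie above the line in the knockout, and no gene does in wild type.

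The IL-10 log2 ratio of the knockout minus that of wild type was highest in the set for the interferon-inducible members, a grouping made with these results known. It was 0.57 for Dtx3l, 0.51 for Parp9, 0.42 for Parp14, 0.33 for Parp10 and 0.30 for Parp12. The remaining members lay between -0.05 and 0.16, with Parp8 the highest of them. Dtx3l stood above 99.4% of all genes by this difference and Parp9 above 99.1%. No member reached 2-fold upward, beside 0.0965% of all genes, or downward, beside 0.0351%. None reached 1.5-fold, beside 0.5% upward and 0.263% downward. The difference was above 0 for 8 of 10 members, beside 48.7% of all genes.

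Under mock treatment the knockout and wild type differed little in these genes. The log2 ratio, knockout over wild type, was 0.22 for Parp9, 0.19 for Parp2, 0.15 for Parp12 and for Parp3, 0.03 for Parp14 and 0.01 for Dtx3l. It was below 0 for Parp10 (-0.08), Parp8 (-0.04), Parp1 (-0.13) and Parp4 (-0.20). The sign of Dtx3l turned with the scaling: its ratio was -0.01 after the median of all genes was subtracted. No member reached 1.5-fold, beside 1.43% of all genes past that limit upward and 1.4% downward, nor 2-fold, beside 0.325% and 0.105%.

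With IL-10, the 5 interferon-inducible members were all higher in the knockout than in wild type, beside 51.8% of all genes. The log2 ratio was 0.72 for Parp9, 0.58 for Dtx3l, 0.45 for Parp12 and for Parp14, and 0.26 for Parp10. Of the 10 members, 1 (Parp9) was at least 1.5-fold higher, beside 1.8% of all genes, and none was 1.5-fold lower, beside 0.991%. None reached 2-fold upward, beside 0.596%, or downward, beside 0.0789%. Dtx3l lay just under the limit, and its plain ratio without the pseudocount was 1.51-fold. The other 5 members lay between -0.19 for Parp4 and 0.18 for Parp3. This comparison shares the knockout column with IL-10 with the IL-10 ratio of the knockout, so the values of both are not independent.

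A list of 30 interferon-stimulated genes outside the PARP family, of which 28 were kept, stood differently under mock. All 28 were higher in the mock-treated knockout, beside 53.5% of all genes. Their median log2 ratio was 0.80, and 9 of them exceeded 2-fold. The median of the interferon-inducible PARP genes and Dtx3l was 0.03, and 23 of the 28 stood above Parp9, the highest of these 5. Irf7, a transcription factor of the interferon response, was listed at 2124 units in the mock-treated knockout and 625 in the mock-treated wild type. With IL-10 the medians were 1.12 for the 28 genes and 0.45 for the 5. By the IL-10 ratio of the knockout the order differed: the medians were 0.48 for the 28 genes and 0.57 for the 5, and in wild type 0.17 and 0.20. For the difference between the responses the medians were 0.33 for the 28 genes, 26 of them above 0, and 0.42 for the 5. Of the 28, 6 stood above Dtx3l, the highest of the 5, and 16 above Parp12, the lowest. By the log2 ratio of knockout over wild type with IL-10, Rtp4 (3.01), Ifit2 (2.82), Ifit1 (2.24) and Ifit3 (2.04) were the highest in the list. For Ifit3 the difference between the responses was only 0.15. Rtp4 was listed at 1274 units in knockout cells with IL-10 and 135 in wild-type cells with IL-10. The difference between the lists was not tested, since the columns give no spread.

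**Figure D3:**
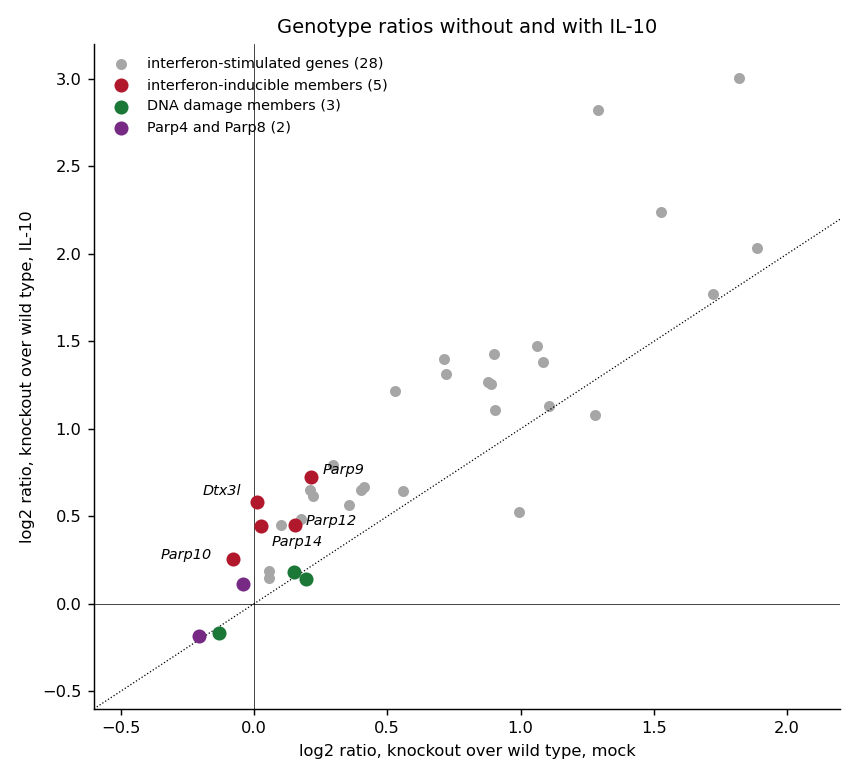
Each point is a gene, with its log2 ratio of knockout over wild type under mock on the x axis and with IL-10 on the y axis; the dotted line marks equal ratios, and the axes share no column. The 5 interferon-inducible members (red) lie between -0.08 and 0.22 on the x axis and between 0.26 and 0.72 on the y axis, whereas the 28 interferon-stimulated genes (grey) have a median of 0.80 on the x axis.

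Markers of other cells also differed between the columns. The 7 kept of 8 monocyte markers had a median log2 ratio, knockout over wild type, of 0.61 under mock and 0.62 with IL-10. Their IL-10 ratio had a median of 0.44 for the knockout and 0.63 for wild type. The median of the differences taken gene by gene between the responses, a separate statistic, was 0.00, with single genes between -0.33 and 0.26. Their summed signal was 3823 units in knockout cells with IL-10, 2843.5 in knockout mock, 2451 in wild type with IL-10 and 1541.5 in wild-type mock. Of the 10 kept of 11 mesothelial and fibroblast markers, 10 were below 0 for knockout over wild type in the mock pair of columns (median -0.63) and 9 in the IL-10 pair (median -0.59), where the signal of Msln was 31 units in both genotypes. The 5 kept of 7 resident peritoneal macrophage markers had a median of -0.74 in the mock pair and -0.52 in the IL-10 pair, with 3 below 0 and 2 above 0 in each, and ran under mock from -0.90 for Vsig4 to 0.88 for Cxcl13. The 4 kept of 7 mast cell markers were all above 0 in both pairs (median 0.41 under mock, 0.54 with IL-10), at no more than 196.5 units in any column. The part of these cells in the values of the PARP genes was not tested.

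The 7 PARP family genes outside the set showed no IL-10 ratio in the knockout comparable to those of the interferon-inducible members. Under mock, their log2 ratios of knockout over wild type lay between -0.31 for Tnks2 and 0.12 for Parp6. These 7 genes were not sorted by whether interferon induces them, so the label interferon-inducible was given to members of the set only. The medians of the interferon-inducible members therefore do not describe all PARP genes that interferon induces. Their log2 IL-10 ratios lay between -0.07 and 0.03 in the knockout and between -0.16 and 0.10 in wild type, and none reached 1.5-fold in any comparison. Zc3hav1, which encodes the zinc finger antiviral protein, was listed at 6310 units in knockout cells with IL-10 and 6620.5 under mock, and at 6172 units in wild-type cells with IL-10 and 6840 under mock. Tiparp, a target of the aryl hydrocarbon receptor, was listed at 1816 and 1817 units in knockout cells with IL-10 and under mock. Parp11, which adds single units, had a log2 IL-10 ratio of 0.02 for the knockout and -0.13 for wild type. The tankyrase genes Tnks and Tnks2, whose products build chains, had ratios of -0.07 and 0.01 in the knockout, and Parp6 and Parp16 had -0.05 and 0.03. Of the deltex genes other than Dtx3l, 3 of 4 were listed, and Dtx2 had the highest IL-10 ratio of them, 0.28 in the knockout and 0.07 in wild type.

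Genes that remove or read ADP-ribose and genes of strand break repair also stayed within 1.5-fold in all 5 comparisons. The 16 kept of 18 genes of removal and reading, among them Parg, which cuts ADP-ribose chains, had a median IL-10 ratio of 0.03 for the knockout and of 0.00 for wild type. The 13 kept of 14 repair genes, among them the scaffold gene Xrcc1, had a median of -0.02 for the knockout and of 0.09 for wild type. Of the 14 kept genes of NAD synthesis and use, 3 differed by at least 1.5-fold in a pair of columns of which the higher held 5 ppm (134 units) or more. Cd38, which encodes an enzyme that consumes NAD, was listed at 939.5 units in knockout cells with IL-10 and 254.5 under mock, and at 583 units in wild-type cells with IL-10 and 146.5 under mock. Its log2 IL-10 ratio was 1.78 in the knockout and 1.82 in wild type, close to each other and unlike the ratios of Parp9. Bst1, a relative of Cd38, was higher in the mock-treated knockout (log2 ratio 0.65), and Naprt1, of NAD synthesis from nicotinic acid, was higher with IL-10 in wild type (0.60). Nampt, the rate-limiting enzyme of NAD salvage, lay just under the limit at 0.57 in the knockout and 0.34 in wild type, and is named after its values were seen. STAT3-linked feedback genes, set here for scale, had a median IL-10 ratio of 1.63 for the knockout and 1.15 for wild type over 5 genes, Socs3 with the highest. Taken gene by gene, their difference between the responses had a median of 0.23, with single genes between 0.18 and 0.71.

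**Figure D4:**
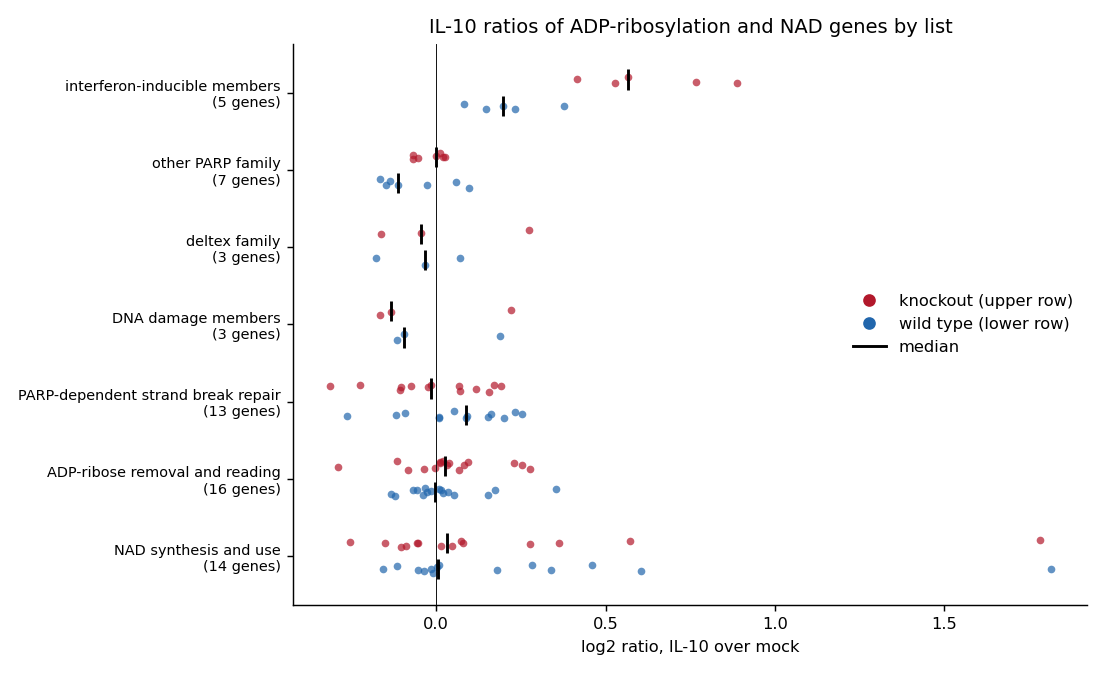
Points give the log2 ratio of IL-10 over mock of single genes, in the knockout (red, upper row of each list) and in wild type (blue, lower row), and black ticks give the median of each list. The interferon-inducible members have a median of 0.57 for the knockout and of 0.20 for wild type, and the points far to the right, at 1.78 and 1.82, are Cd38.

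Around Parp9 on chromosome 16, 10 listed genes start within 500 kb, a window set after the values were seen, and 7 of them are not members. Those 7 had log2 IL-10 ratios between -0.25 and 0.25 in the knockout. Kpna1, which encodes a nuclear import adaptor and starts 80.9 kb from Parp9, had a ratio of -0.25 for the knockout and -0.03 for wild type. Hspbap1, which lies beyond Parp14, had -0.02 in the knockout and 0.09 in wild type. For 6 of these 7 genes the difference between the responses was below 0, whereas for Parp14, Parp9 and Dtx3l it was above 0. Of all genes, 48.7% were above 0 by this difference.

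**Figure D5:**
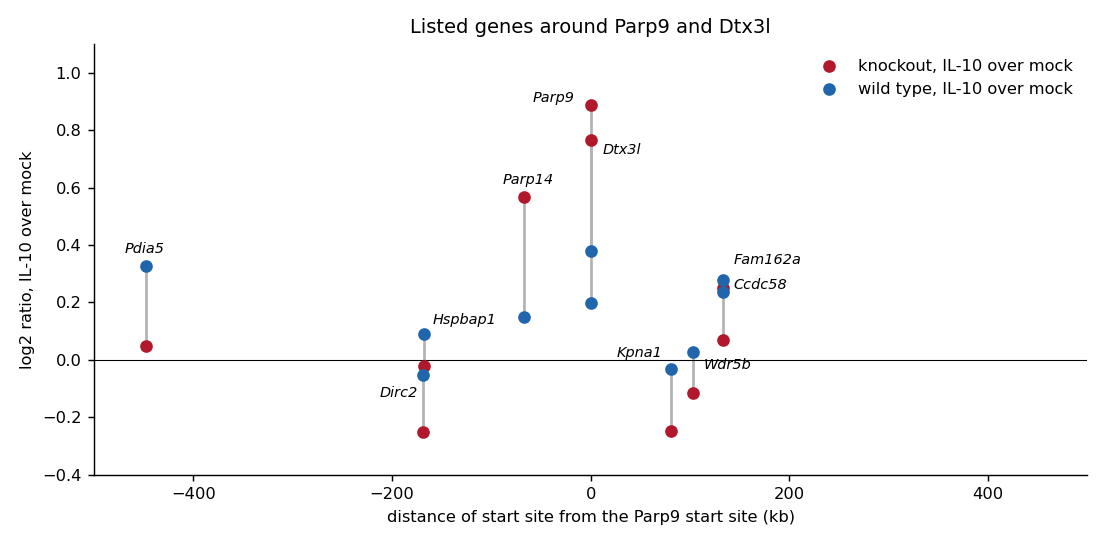
Points give the log2 ratio of IL-10 over mock in the knockout (red) and wild type (blue) against the distance of each listed gene's start site from that of Parp9, in kb, with a grey line joining both values of a gene. Parp14, Parp9 and Dtx3l lie above their neighbours in the knockout.

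Likeness was measured as the Euclidean distance between profiles of log2 signal over the 4 columns, each centred on its own mean, to the mean profile of Parp9, Dtx3l and Parp14. Among 9439 genes of at least 5 ppm, the 5 nearest that are not members were BC013712, at a distance of 0.067, Irgm2, an interferon-inducible GTPase gene, Herc6, which encodes a ligase of the ISG15 modifier in mice, Zranb3, a DNA translocase gene, and Srp54a, of the signal recognition particle, at 0.0969. Irgm2 was listed at 617.5 units in knockout cells with IL-10 and 377 under mock, and at 399 units in wild-type cells with IL-10 and 354.5 under mock. With 4 values per gene, such nearness is a description of these columns.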

How the data were processed

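The authors deposited 1 table of normalized expression signal with 1 column per group, formed from 2 samples each per the labels. The submitters' processing notes name RSEM, Bowtie and mm9 with no version or role. How values were normalized, with which annotation and after which filter, is not given in the sources used here. Although the submitters named the data as CPM, a column's sum is 26705598 in every case, each value is a multiple of 0.5 and the highest, 362618, recurs in every column, so the values were used as a signal. Sequencing depth is unknown, and no counting interval is given.

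Columns were compared as log2 ratios after 1 ppm of a column's sum (26.7 units) was added as pseudocount, over the 11400 genes with a mean of at least 1 ppm, with limits of 2-fold and 1.5-fold. The test planned for values per sample was not run. Members and lists were chosen with earlier results of these data known. Named are all 10 members, genes of the other lists past 1.5-fold with at least 5 ppm in the higher column (at most 5 per list), all other PARP genes, and the 5 nearest profiles; further genes were named after their values were seen. List genes were matched by symbol, or through the Ensembl ID of the symbol. Promoters are RefSeq's on GRCm38.p6, and exons were taken from GENCODE M21 on GRCm38. Python 3.11.15, numpy 2.4.6 and pandas 2.3.3 were used, and the ratios were tested on simulated data. Alternatives were other pseudocounts, filters, limits and centrings.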

Additional observations from a re-analysis of the deposited data

How the results depend on the processing

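No paired analysis was possible because the table holds 1 column per group, and for the same reason no replicate could be left out. Under 7 alternatives (pseudocounts of 0.25 and 4 ppm, no filter, a filter at 5 ppm, and ratios minus the median of all genes, of the 500 genes nearest in signal or of the 500 nearest in transcript length) no member reached 2-fold in any comparison. With the limit at 1.5-fold in place of 2-fold, 2 members were higher with IL-10 in the knockout and 1 was higher in the knockout than in wild type with IL-10. That count of 1 became 2 with a pseudocount of 0.25 ppm and with the transcript length median subtracted, by the addition of Dtx3l. The count of 2 became 3, by the addition of Parp14, with the median of the genes nearest in signal (0.59) or in transcript length (0.62) subtracted. The median of the 5 interferon-inducible members ranged from 0.55 to 0.62 for IL-10 in the knockout, from 0.18 to 0.25 in wild type, from 0.37 to 0.42 for the difference between these responses, from 0.43 to 0.56 for the knockout against wild type with IL-10, and from 0.01 to 0.13 under mock. Over these alternatives the sign changed for Dtx3l under mock, which ranged from -0.02 to 0.10, and for Parp4 in the difference between the responses, from -0.02 to 0.03. Parp14 under mock ranged from 0.01 to 0.22. Without Dtx3l, whose row overlaps that of Parp9, the median of the other interferon-inducible members was 0.55 for IL-10 in the knockout and 0.38 for the difference between the responses.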

Other observations

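Ranked by the distance of their profile over the 4 columns to the mean profile of Parp9, Dtx3l and Parp14, the other members fell in separate places among 9439 genes. Parp12 stood at rank 15, Parp8 at 244, Parp10 at 259 and Parp3 at 428. Parp2, Parp1 and Parp4 stood at 5818, 7630 and 7848. Dtx3l stood at rank 1, Parp14 at 22 and Parp9 at 30, but these genes make up the mean profile, which partly sets their ranks. Parp9 and Dtx3l start head to head, yet their mock values differed between the genotypes by different amounts: Parp9 was listed at 857 units in the mock-treated knockout and 734.5 in the mock-treated wild type, and Dtx3l at 783.5 units in the mock-treated knockout and 776.5 in the mock-treated wild type.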
